A study of Homo sapiens with 9 samples.

Results

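NF-kB is a family of dimeric transcription factors that inhibitor proteins hold in the cytoplasm until a signal from a cytokine or microbial receptor has the inhibitors degraded. The active dimers then switch on, among other genes, their own inhibitors and subunits, so that the transcripts of feedback genes such as NFKBIA and TNFAIP3 are widely used as a readout of the pathway. In monocytic cells, the same danger signals that start NF-kB can also start the production of interferon, which acts through separate factors of the STAT and IRF families. The 9 genes followed here were listed by name. They were the subunits NFKB1, NFKB2, RELA and RELB, the inhibitors NFKBIA and NFKBIE, and the induced genes TNFAIP3, BIRC3 and CD83. A probe carried the name of 8 of the 9 genes, with 11 probes in all among 47323 on the array and 20046 named genes. BIRC3 had no probe under its name and was not analysed here. A probe of 6 of the 9 genes was detected (detection p under 0.01 against the negative control beads) on at least 3 arrays and entered the tests across 8611 genes.

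The cells were U937, a human myeloid line from a histiocytic lymphoma. They had received a lentiviral H1 vector with a short hairpin RNA against DEK (shDEK14 or shDEK17) or the vector without a hairpin (shEMPTY), were sorted for GFP after 48 h and were cultured for 4 more days before total RNA was taken. Each of the 3 groups held 3 Illumina bead arrays, numbered as experiments 1 to 3 in every group. The labels do not say whether these were separate transductions, and the error behind each p-value is therefore that between arrays, which can be technical in part. Each transduced population was 1 bulk culture, in which fewer cells of a type and less RNA per cell cannot be told apart.

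The targeted gene went against several labels. The intensity of DEK as deposited was 2360, 359 and 2826 in the libraries labelled shDEK14 replicates 1 to 3, 432, 1890 and 532 in those labelled shDEK17, and 2510, 294 and 2580 in those labelled shEMPTY. Below 1000 lay the libraries labelled shDEK14 replicate 2, shDEK17 replicates 1 and 3 and shEMPTY replicate 2, so that 3 hairpin libraries had a high DEK signal and 1 empty vector library a low one. Every contrast by label below carries this limit, and no set of libraries was averaged or tested by its DEK signal. The 9 arrays had a mean raw intensity of 362 to 457 and 12729 to 14152 detected probes. Of the myeloid markers, 13 of 13 with a probe were detected on at least 3 arrays, against 0 of 5 erythroid and 0 of 5 epithelial markers on any array. The other lists lay between. On at least 3 arrays, 2 of 7 macrophage, 2 of 7 dendritic, 2 of 4 B cell and 1 of 8 T and NK cell markers were detected.

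Promoter sequences of the members were searched for the NF-kB consensus motif. In RefSeq promoter windows of GRCh38.p14 (300 bases, from 250 before to 50 after a transcription start), the NF-kB consensus, searched on both strands, was found in 5.91% of all 35116 windows. The table held 12 windows for 7 of the 9 genes and the consensus lay in 7 of the 12, belonging to 6 genes (NFKB1, NFKB2, NFKBIA, TNFAIP3, BIRC3 and CD83). RELA had no match in its windows, and RELB and NFKBIE had no window. The motif GAAANNGAAA, which is typical of interferon-induced genes and was also searched on both strands, was found in 3.57% of all windows and in 1 of the 12, a window of RELA. Printed here are the 150 bases before the start of 4 members and, for contrast, of the interferon-induced genes IFIT1 and ISG15, each on the strand of its gene. Capitals mark the NF-kB consensus in the first 4 and GAAANNGAAA, or its reverse complement, in the other two. The capitals of CD83 and ISG15 cover overlapping matches. A match is a description of the letters and not evidence of binding. The members were listed as genes of this pathway, so their share of windows is no independent result.
NFKB1 (chr4:102501209-102501358, plus strand): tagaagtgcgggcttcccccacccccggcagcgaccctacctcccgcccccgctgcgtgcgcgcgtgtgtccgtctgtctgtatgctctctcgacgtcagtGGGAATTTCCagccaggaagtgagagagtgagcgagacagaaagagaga
NFKBIA (chr14:35404750-35404899, minus strand): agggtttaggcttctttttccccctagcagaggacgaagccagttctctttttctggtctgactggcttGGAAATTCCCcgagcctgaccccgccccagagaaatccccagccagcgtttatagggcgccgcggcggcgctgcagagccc
TNFAIP3 (chr6:137867109-137867258, plus strand): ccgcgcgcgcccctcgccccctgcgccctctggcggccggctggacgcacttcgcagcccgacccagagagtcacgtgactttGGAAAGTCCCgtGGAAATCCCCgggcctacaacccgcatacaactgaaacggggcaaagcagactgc
CD83 (chr6:14117622-14117771, plus strand): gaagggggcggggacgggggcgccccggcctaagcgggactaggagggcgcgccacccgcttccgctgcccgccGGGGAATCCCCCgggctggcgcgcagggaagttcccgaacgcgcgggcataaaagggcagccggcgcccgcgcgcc
IFIT1 (chr10:89392473-89392622, plus strand): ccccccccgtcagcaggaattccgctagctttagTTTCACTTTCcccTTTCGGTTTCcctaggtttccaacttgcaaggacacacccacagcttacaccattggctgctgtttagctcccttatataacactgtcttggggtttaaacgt
ISG15 (chr1:1013347-1013496, plus strand): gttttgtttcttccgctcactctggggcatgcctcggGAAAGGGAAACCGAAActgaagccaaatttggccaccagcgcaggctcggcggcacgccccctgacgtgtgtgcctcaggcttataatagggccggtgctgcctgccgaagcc

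Among the subunits, NFKB1, which encodes the p105 precursor of the p50 subunit, was detected in every library. Its scaled intensity (the deposited intensity after 1 factor per array) was 772, 1059 and 745 in the libraries labelled shDEK14 replicates 1 to 3, 845, 943 and 1300 in those labelled shDEK17, and 1046, 1097 and 946 in those labelled shEMPTY. The highest and the lowest library both carried a hairpin, and the groups overlapped. The 4 libraries with low DEK had 1059, 845, 1300 and 1097. They held the 3 highest values of the 9 and 1 of the 3 lowest. The next highest, 1046 in shEMPTY replicate 1, was close to 1059. On the normalized log2 scale, the average of the hairpin groups differed from shEMPTY by -0.14 ± 0.19 (SE, n = 3 per group; adjusted p = 0.971, limma). It lay between -0.25 without shDEK14 replicate 2 and -0.08 without shDEK17 replicate 1.

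NFKB2, the precursor of the p52 subunit of the non-canonical pathway, had 3 probes. ILMN_2390859 was detected on 5 of the 9 arrays, with scaled intensities of 162, 149 and 138 in the libraries labelled shDEK14, 149, 145 and 175 in those labelled shDEK17, and 153, 147 and 143 in those labelled shEMPTY. The highest value stood in shDEK17 replicate 3 and the groups overlapped, with a log2 difference of 0.18 ± 0.20 over both hairpins (adjusted p = 0.965, limma) that was 0.06 without that library. The probes ILMN_1799062 and ILMN_2247868 were detected on no array. They ranged from 103 to 134 and from 86.5 to 120, and no fold is given for them.

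RELA encodes p65, the subunit with the main activation domain. Its probe had 159, 159 and 177 in the libraries labelled shDEK14, 163, 150 and 159 in those labelled shDEK17, and 139, 170 and 162 in those labelled shEMPTY. It was detected in every library but shEMPTY replicate 1, the lowest of the 9, and the groups overlapped. The log2 difference over both hairpins was 0.17 ± 0.17 (adjusted p = 0.965, limma). It was -0.02 without shEMPTY replicate 1.

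RELB, the partner of p52, was detected on no array, with a lowest detection p of 0.136. Its probe had 113, 118 and 118 in the libraries labelled shDEK14, 113, 108 and 111 in those labelled shDEK17, and 115, 101 and 115 in those labelled shEMPTY. These levels were not well above background, so they have no order and no fold.

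The inhibitors were detected in every library. NFKBIA, the IkB-alpha protein that is degraded and resynthesized in each round of activation, had scaled intensities of 714, 724 and 902 in the libraries labelled shDEK14, 874, 891 and 662 in those labelled shDEK17, and 790, 718 and 717 in those labelled shEMPTY. The shEMPTY libraries lay inside the range of the hairpin libraries, and the log2 difference over both hairpins was 0.15 ± 0.16 (SE, n = 3 per group; adjusted p = 0.965, limma), or 0.23 without shDEK17 replicate 3. NFKBIE, the related IkB-epsilon, had 237, 213 and 211 in the libraries labelled shDEK14, 208, 237 and 227 in those labelled shDEK17, and 261, 244 and 218 in those labelled shEMPTY. Its shEMPTY replicates 1 and 2 were the highest of the 9 while replicate 3 fell among the hairpin libraries, with a log2 difference of -0.13 ± 0.16 (adjusted p = 0.967, limma). It was -0.01 without shEMPTY replicate 1 and -0.24 without shEMPTY replicate 3. By DEK signal, NFKBIA was 724, 874, 662 and 718 in the 4 libraries with low DEK, and NFKBIE was 213, 208, 227 and 244 there. The lowest value of each gene, in shDEK17 replicate 3 for NFKBIA and replicate 1 for NFKBIE, lay below the other 5 libraries, and the rest lay among them.

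TNFAIP3 encodes A20, a ubiquitin-editing enzyme that shuts off signalling upstream of the inhibitors. Its scaled intensity was 108, 130 and 123 in the libraries labelled shDEK14, 137, 146 and 140 in those labelled shDEK17, and 118, 158 and 138 in those labelled shEMPTY. Only shEMPTY replicate 2, with the highest value, passed the detection limit, at 0.0039. The next library was shDEK17 replicate 2, just outside the limit at 0.0104. TNFAIP3 therefore did not enter the test across genes, and the bound on a fold between the groups was under 1 in each contrast with shEMPTY.

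CD83, a surface protein of activated myeloid and dendritic cells that NF-kB induces, was measured by 2 probes and was detected in every library by both. ILMN_1780582 had scaled intensities of 340, 467 and 380 in the libraries labelled shDEK14, 416, 382 and 530 in those labelled shDEK17, and 586, 423 and 607 in those labelled shEMPTY. Its highest values stood in shEMPTY replicates 3 and 1, but replicate 2 fell among the hairpin libraries and the groups overlapped. The log2 difference over both hairpins was -0.39 ± 0.22 (95% CI -0.86 to 0.08, adjusted p = 0.960, limma), and it was -0.61 without shEMPTY replicate 2.

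ILMN_2328666, the other CD83 probe, had 213, 245 and 214 in the libraries labelled shDEK14, 262, 228 and 283 in those labelled shDEK17, and 311, 298 and 324 in those labelled shEMPTY. All 6 hairpin libraries lay below all 3 shEMPTY libraries on this scale, as did 2.46% of the 11198 probes tested. On the normalized scale the groups met, because shDEK17 replicate 3 (log2 level 7.66) was just above shEMPTY replicate 2 (7.64). The log2 difference was -0.50 ± 0.17 over both hairpins (95% CI -0.86 to -0.14, not adjusted for the number of probes). Its unadjusted p was 0.0113 and its adjusted p 0.960 (limma). An unadjusted p under 0.05 was found for 5.13% of the probes. Set against shEMPTY alone, shDEK14 differed by -0.66 ± 0.19 (adjusted p = 0.959, limma) with no overlap, as did 5.65% of the probes in the same direction, and shDEK17 by -0.34 ± 0.19 (adjusted p = 0.999). In the 4 libraries with low DEK, ILMN_2328666 had 245, 262, 283 and 298, all inside the range of 213 to 324 of the other 5.

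**Figure D1:**
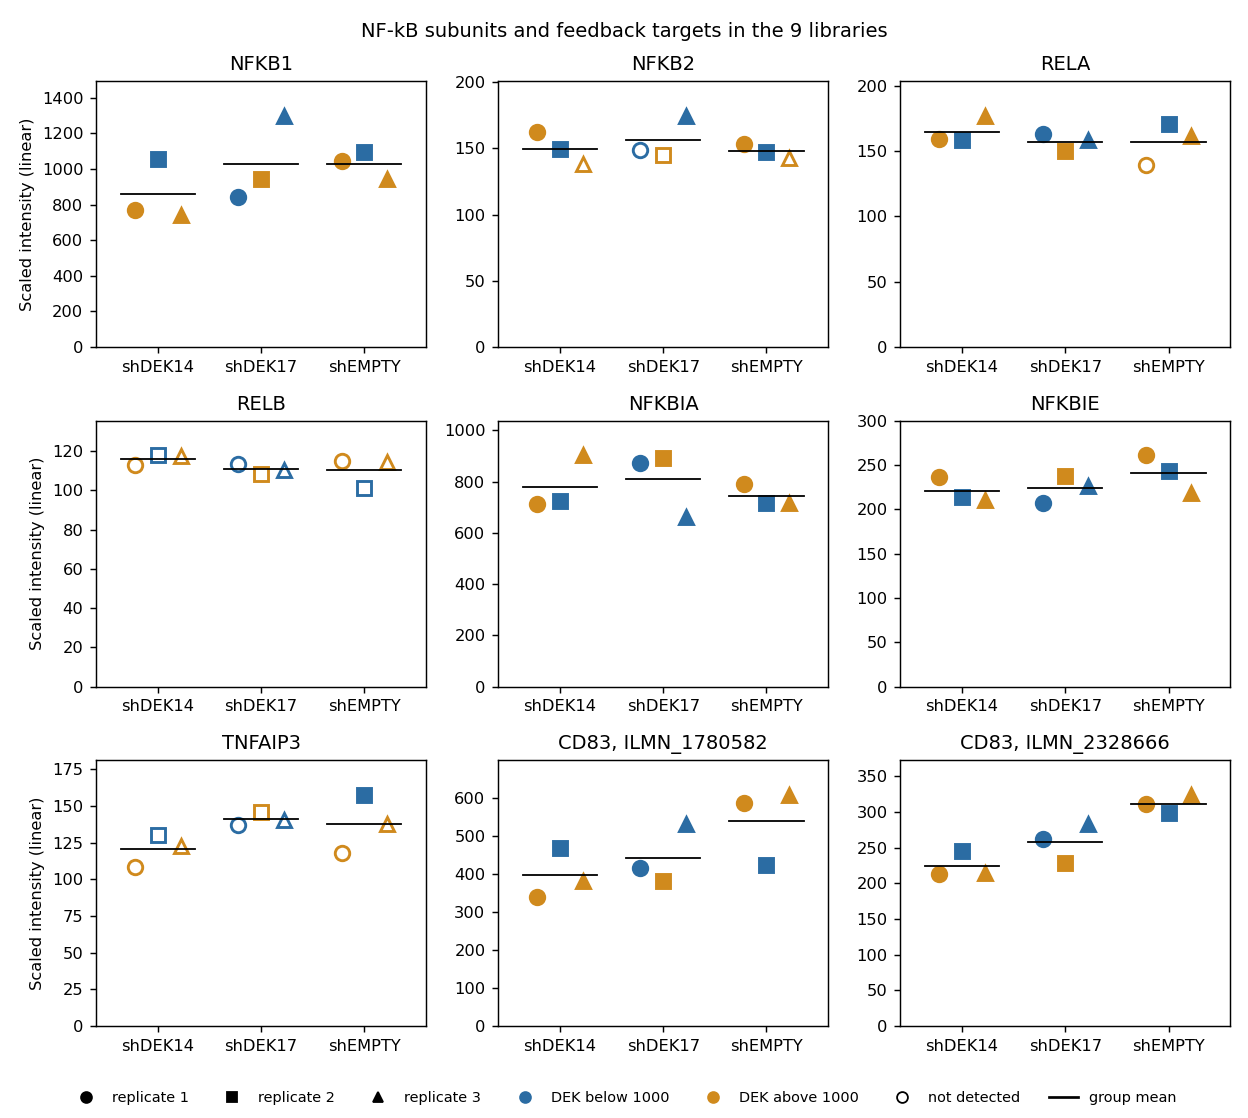
Scaled intensity (linear, vertical axis from 0) of 9 probes of 8 genes in each library by label, with marker shape for the replicate number, colour for a DEK intensity below or above 1000, open markers for probes not detected and a line for the group mean of 3 libraries. TNFAIP3 has 1 filled marker, in shEMPTY replicate 2 at 158, and ILMN_2328666 of CD83 stands at 298 to 324 in shEMPTY against 213 to 283 in the hairpin libraries.

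Of the members, 4 were detected on all 9 arrays, and 2 of these ranged less and 2 more than most genes. Among the 7112 genes detected on all 9 arrays, the median range from the lowest to the highest library was 0.73 on the log2 scale. The inhibitors NFKBIA and NFKBIE ranged over 0.50 and 0.57, which is a smaller range than that of most genes. NFKB1 ranged over 0.90 and CD83 over 1.01, wider than 71.1% and 80.3% of these genes. The 2 wider members went together over the 9 libraries with a Pearson r of 0.65, and NFKBIA had an r of -0.47 with NFKB1 and -0.38 with CD83. These are descriptions over 9 libraries that share a normalization. The genes whose pattern over the 9 libraries was most like that of CD83 were CDK13, TRMT61B and TMEM158 (r = 0.960 each) and FAM241A (r = 0.953). For NFKB1 they were GFM1 (r = 0.974), TMC6 and SLC22A16 (r = 0.965 each) and MRPL12 (r = 0.963), and for NFKBIE they were STUB1 (r = 0.963), PARVG (r = 0.955), PSMB5 (r = 0.948) and LSM10 (r = 0.946). No other gene of the NF-kB lists was among them. They were picked for the highest r among many genes, and no background for such a maximum was computed. CD83 was read here from ILMN_1780582 only.

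By label, no gene passed the test in any of the 4 contrasts, so the count for the members is that of all genes. The adjusted p of limma was under 0.05 for 0 of the 6 over both hairpins against shEMPTY, where 0% of the 8611 genes passed, 452 genes (5.25%) had an unadjusted p under 0.05 and the methods' t-test gave 564 such genes and 0 after Benjamini-Hochberg adjustment. It was under 0.05 for 0 of the 6 also in shDEK14 against shEMPTY, shDEK17 against shEMPTY and shDEK14 against shDEK17, where 0% of all genes passed and 391 (4.54%), 327 (3.8%) and 156 genes (1.81%) had an unadjusted p under 0.05. No member had an unadjusted p under 0.05 in these fits over genes. Over both hairpins, 3 members lay above 0 and 3 below it, with a median log2 difference of 0.01, beside -0.01 over all genes, of which 51.9% lay below 0.

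Between the hairpins, RELA was the only 1 of the 6 tested members whose normalized values did not overlap. It was higher in the 3 libraries labelled shDEK14 than in those labelled shDEK17, by 0.19 ± 0.19 on the log2 scale (adjusted p = 0.9995, limma). The RELA groups did overlap on the scaled intensities, and 2.55% of all genes stood apart in this direction. RELB and TNFAIP3, which did not enter the tests, also stood apart on the normalized scale. Neither was detected in a hairpin library, so no order or fold is given for them. The 95% confidence intervals of the 6 members were wide: over both hairpins they reached from -0.86 at the low end of CD83 to 0.61 at the high end of NFKB2. These ends belong to different genes. A difference inside the interval of a gene is not excluded for that gene.

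**Figure D2:**
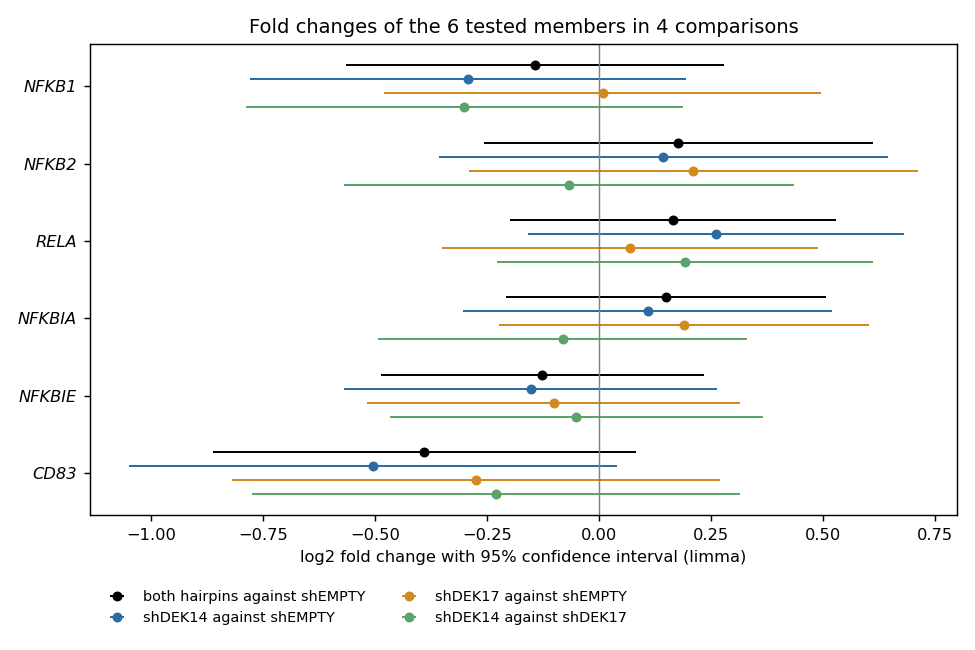
Log2 fold change (horizontal axis) with its 95% confidence interval from limma for the 6 tested members in 4 contrasts, with 3 libraries per group. Each gene is shown by its brightest probe, CD83 by ILMN_1780582. Every interval shown crosses 0, and CD83 lies farthest to the left, at -0.50 in shDEK14 against shEMPTY. The other CD83 probe, ILMN_2328666, is not shown and had -0.66 there (95% CI -1.08 to -0.24).

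The members stand in a wider pathway. Of 55 listed receptors, adaptors, kinases and ubiquitin enzymes of the pathway, 35 were tested and 0 passed in any contrast, with 20 above 0 and 15 below over both hairpins and a median of 0.02. The lowest was TICAM1, the adaptor TRIF of Toll-like receptors 3 and 4, with scaled intensities of 217, 197 and 241 in the libraries labelled shDEK14, 217, 181 and 215 in those labelled shDEK17, and 248, 300 and 280 in those labelled shEMPTY. All 6 hairpin libraries lay below all 3 shEMPTY libraries, as 1.59% of all genes did, with a log2 difference of -0.56 ± 0.16 (adjusted p = 0.937, limma). MAP3K14, the NIK kinase of the non-canonical pathway, was next at -0.24 ± 0.20 and was detected on 3 arrays. The highest were the kinase TBK1, at 0.30 ± 0.23, and OTULIN, a deubiquitinase of linear chains, at 0.30 ± 0.15 (adjusted p = 0.960 and 0.951, limma). OTULIN was above all 3 shEMPTY libraries in all 6 hairpin libraries, as 1.5% of all genes were.

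Of 37 other genes listed as NF-kB targets, 20 were tested and 0 passed in any contrast, with 11 above 0 and 9 below over both hairpins and a median of 0.10. The lowest was the chemokine CXCL8, with 173, 158 and 165 in the libraries labelled shDEK14, 139, 196 and 227 in those labelled shDEK17, and 191, 223 and 301 in those labelled shEMPTY. These groups overlapped, with a log2 difference of -0.73 ± 0.33 (adjusted p = 0.937, limma). The interleukin-1 receptor antagonist IL1RN followed at -0.39 ± 0.41. The highest was IER3, an early response gene, with 175, 139 and 163 in the libraries labelled shDEK14, 138, 181 and 135 in those labelled shDEK17, and 123, 117 and 120 in those labelled shEMPTY. It was detected in shDEK14 replicates 1 and 3 and shDEK17 replicate 2 only, the 3 hairpin libraries whose DEK signal was high against their label, and not in the other hairpin libraries. It entered the test only through those 3 libraries, where it was high, so its place at the top is no support for a difference. The adjusted p of its log2 difference was 0.937 (limma). Since no shEMPTY library and only 3 hairpin libraries detected IER3, no fold is given for it. The kinase MAP3K8 was next at 0.35 ± 0.21.

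The library labelled shEMPTY replicate 2 had a strong interferon profile, and the question was whether NF-kB targets were active in it too. Each gene was set against the median of the other 8 libraries on the log2 scale, and was counted where it was past 1.5-fold and beyond all 8. Since this library was singled out for its interferon genes and has no replicate, these values are a description without a test. Of 24 tested interferon-induced genes, 23 were above all other libraries and past 1.5-fold, while 2.72% of the 8611 genes were, and the median deviation was 3.17.

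The largest deviations belonged to genes of the antiviral response. IFIT1, which binds viral RNA, had a scaled intensity of 4783 in shEMPTY replicate 2 and 140 to 207 in the other 8 libraries. ISG15, a ubiquitin-like modifier, had 10758 there and 318 to 465 in the others. The other 4 of the 6 largest were OAS2, IFIT3, OAS3 and IRF9, the DNA-binding part of the interferon-activated ISGF3 complex, at 1016 to 3122 in shEMPTY replicate 2. IRF9 alone had 1016 there and 141 to 196 in the other libraries.

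The NF-kB members did not share this. In shEMPTY replicate 2, 0 of the 6 tested members were past 1.5-fold in either direction, where 2.72% of all genes were above and 2.59% below all other libraries by that rule, and 0 of the 6 were the highest of the 9 libraries (10.4% of all genes were). Of the 6, 3 lay above the median of the other libraries, as 48.5% of all genes did, and their median deviation was -0.03, beside -0.01 over all genes. NFKB1 deviated by 0.22, NFKBIE by 0.10, RELA by 0.08, NFKBIA by -0.14, NFKB2 by -0.15 and CD83, by ILMN_1780582, by -0.18. The other CD83 probe deviated by 0.23. NFKB2 and RELA, detected on 5 and 8 of the 9 arrays, lay near background, which limits what their deviations can show. NFKBIA, the feedback inhibitor, thus had 718 in this library, between 662 and 902 in the other 8.

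TNFAIP3, which did not enter this count, was the exception in detection. It was detected in shEMPTY replicate 2 only. Because the other 8 libraries were not well above background, only a bound can be given: its level there was at least 1.13-fold above that of the other 8, with normalized log2 levels of 5.996 and 5.417. The scaled intensity of 158 in shEMPTY replicate 2 stood next to 146 in shDEK17 replicate 2, a difference of the size seen between the replicates of a group.

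**Figure D3:**
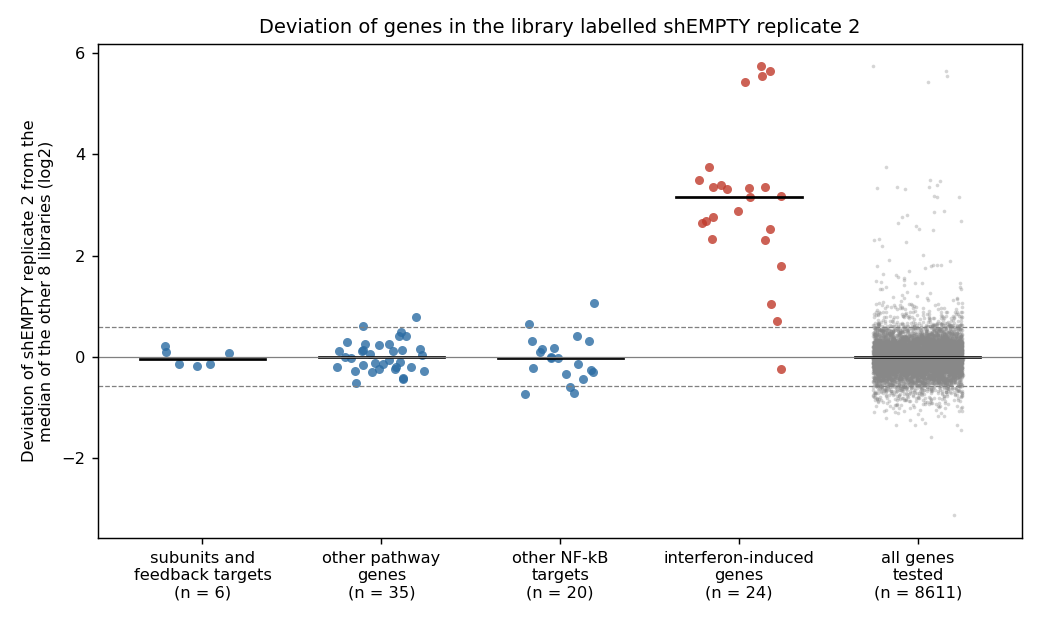
Deviation of each tested gene in the library labelled shEMPTY replicate 2 from the median of the other 8 libraries (log2, vertical axis), for 4 gene lists and all 8611 genes, with a black line at the median and dashed lines at 1.5-fold. The 6 members lie between -0.18 and 0.22, and the interferon-induced genes have a median of 3.17.

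The other genes of the pathway held a few that stood apart in shEMPTY replicate 2. Of 35 tested pathway genes, 2 were above all other libraries and past 1.5-fold and 0 below, beside 2.72% and 2.59% of all genes. Their median deviation was -0.01. In the other libraries 0 to 3 pathway genes lay above, the most in shDEK14 replicate 3 (3.33% of all genes). RBCK1, a ubiquitin ligase subunit of the linear chain complex, had a scaled intensity of 496 in shEMPTY replicate 2, against 266 to 457 in the other libraries, and was 1.73-fold above their median. TICAM1, described above, had 300 against 181 to 280 and was 1.52-fold above. Both were close to their next highest library, shDEK14 replicate 3 for RBCK1 and shEMPTY replicate 3 for TICAM1.

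Of 20 other NF-kB targets, 2 were above all other libraries past 1.5-fold, beside 2.72% of all genes. Normalized values put 3 below by the same rule, beside 2.59% of all genes, and the median deviation was -0.03. Of these 3, SOD2 was detected in shEMPTY replicate 2 and MAP3K8 and IER3 were not. In the other libraries 0 to 3 targets lay above, the most in shEMPTY replicate 3 (1.85% of all genes). There 0 to 2 lay below, the most in shDEK17 replicate 1 (4.82% of all genes). IL1RN had a scaled intensity of 254 in shEMPTY replicate 2, against 112 to 182 in the other libraries, and was 2.10-fold above their median. GADD45B, a stress-response gene, had 232 against 159 to 220 and was 1.57-fold above. Below the others stood SOD2, the mitochondrial superoxide dismutase and a classical NF-kB target, which had 571 in shEMPTY replicate 2 and 665 to 1022 in the others, 0.60-fold their median. For MAP3K8 only a bound can be given, which was under 1.5-fold. The mean of the other 8 libraries, 7 of which detected it, was at least 1.34-fold above shEMPTY replicate 2. IER3 was detected in only 3 of the other 8, none of them labelled shEMPTY, so no fold is given for it. On the scaled intensities MAP3K8 was not below all others, with 140 in shEMPTY replicate 2 and 137 in shDEK17 replicate 2.

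In the same library the summed scaled intensity of 3 of 7 marker lists was the highest of the 9. The sum of the 8 T and NK cell markers was 1167, against 1010 to 1102 in the other libraries, and that of the 5 epithelial markers, undetected on every array, was 574, against 486 to 573. The scaling factor was also the highest there, at 1.12, against 0.889 to 1.06. All 3 CD3 chains were undetected on every array and NKG7 was the only marker of the 8 detected on all 9. The summed myeloid markers were at 13720 there and at 8999 to 13618 in the others. The part of these markers in the deviations was not tested.

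Set beside the other libraries, shEMPTY replicate 2 was near the middle for the members. Their median deviation ranged from -0.28 in shDEK14 replicate 3 to 0.27 in shDEK17 replicate 3. By its brightest probe, a member passed 1.5-fold beyond all others in 2 libraries. These were NFKB2 in shDEK17 replicate 3, with a deviation of 0.69, and CD83 in shEMPTY replicate 3, with a deviation of 0.64. By the same rule 2.53% and 1.85% of all genes stood above all other libraries in these 2. The NFKB2 probe was detected on only 5 of the 9 arrays. The log2 level of CD83 in shEMPTY replicate 3 was 8.99, beside 8.98 in shEMPTY replicate 1. The other CD83 probe deviated there by 0.43, within 1.5-fold. That probe stood below all others past 1.5-fold in shDEK14 replicate 3, at -0.61, as 2.86% of all genes did. The 4 libraries with low DEK, shDEK14 replicate 2, shDEK17 replicates 1 and 3 and shEMPTY replicate 2, had median deviations of the members of 0.10, -0.11, 0.27 and -0.03, on both sides of 0. The other 5, shDEK14 replicates 1 and 3, shDEK17 replicate 2 and shEMPTY replicates 1 and 3, had -0.04, -0.28, -0.06, 0.18 and -0.15, which also fell on both sides.

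**Figure D4:**
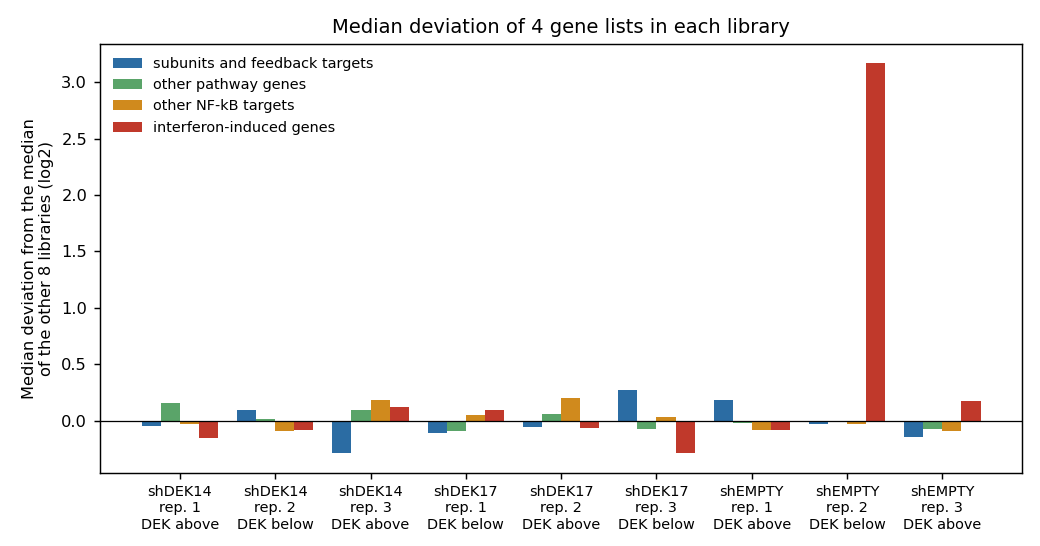
Median deviation (log2, vertical axis) of 4 gene lists in each library from the median of the other 8, by label and replicate, with the side of 1000 on which its DEK intensity lay. The members stay between -0.28 and 0.27 in all 9 libraries, and the interferon-induced genes reach 3.17 in shEMPTY replicate 2.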

How the data were processed

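The authors deposited average bead intensities on a linear scale, without background subtraction, and a detection p-value for each probe against the negative control beads of its array. In a further table the authors deposited the same intensities multiplied by 1 factor per array. These scaled intensities are linear and uncentred, with a mean of 406 and medians of 110 to 119. The method behind the factor and the scanner software are not given in the sources used here. Members were found by symbol in the platform annotation, updated through RefSeq.

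Intensities were corrected with neqc in limma 3.58.1 (R 4.3.3, offset 16, negative controls inferred from the detection p-values), quantile-normalized and analysed as log2 values. A probe was kept where 3 or more arrays detected it at p under 0.01, and each gene was read from its brightest kept probe. The 3 group means were fitted to all 9 arrays together, without covariates, and tested two-sided with Benjamini-Hochberg adjustment over 8611 genes. A fit over 11198 kept named probes gave the values of single probes. Where no array of a group detected a probe, a bound set the brighter group's mean against the higher, per array, of the dim probe's own value and the lowest detected value. The fit was tested on simulated data. The methods' t-test was run beside it, and over both hairpins the p-values of each hairpin were combined by Fisher's method. The methods do not name that way of combining. It treats the p-values as independent, although both hairpins were set against the same 3 shEMPTY arrays.

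Besides the members and DEK, the text names genes of 3 lists (other pathway genes, other NF-kB targets and interferon-induced genes) that lay past 1.5-fold and beyond all 8 other libraries in the library labelled shEMPTY replicate 2 (at most 6 per list and direction), the 2 highest and 2 lowest fold changes of the first 2 lists over both hairpins, and the 4 genes most correlated with each of the 3 members of widest range among those detected on all 9 arrays. The members and lists were chosen with earlier results of these data known. The labels number the arrays as experiments 1 to 3 across the groups, which may mark shared experiments. The deviations from the group means of same-numbered libraries correlated at -0.43 to 0.27, above 0.1 in 1 of 9 pairs, so the number was not used as a block and stands as an alternative. Alternatives varied the background correction, scaling, filter, probe per gene, variance model and libraries used.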

Additional observations from a re-analysis of the deposited data

How the results depend on the processing

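Over 19 alternatives, no member passed the threshold in any contrast, and the lowest adjusted p of a member was 0.413 (limma, CD83 in shDEK14 against shEMPTY without the 3 libraries numbered 2). Over both hairpins, 1 member had an unadjusted p under 0.05 (limma) with the authors' scaled values or the mean of all kept probes. The same held without shDEK14 replicate 2, shDEK17 replicate 3, shEMPTY replicate 2 or the 3 libraries numbered 2. In these alternatives 398 to 558 of the 8611 genes had such a p, and in the others no member did. CD83 stayed below 0 in every contrast and alternative, from -0.65 to -0.28 over both hairpins. The lowest came without the 3 libraries numbered 2, the only alternative under which limma called genes: 1 over both hairpins, 4 in shDEK14 against shEMPTY, 1 in shDEK17 against shEMPTY and 10 in shDEK14 against shDEK17, against 0 with all libraries. It left 2 libraries per group, and the cause was not tested. Of 448 fold changes of members recomputed, 18 changed sign, none past the threshold. In shDEK17 against shEMPTY, NFKB1 was -0.0229 with the authors' scaled values. In shDEK14 against shDEK17, NFKBIA was 0.0117 with median scaling and 0.0319 without the libraries numbered 2, and NFKBIE was 0.0488 and 0.0393. Leaving out 1 library at a time moved the differences over both hairpins by more than 1.5 times for all 6 members, within -0.25 to -0.08 for NFKB1, 0.06 to 0.26 for NFKB2, 0.10 to 0.23 for NFKBIA, -0.24 to -0.01 for NFKBIE and -0.61 to -0.28 for CD83. Ranges crossed 0 for NFKB1 (-0.17 to 0.14), NFKB2 (-0.0185 to 0.33), NFKBIE (-0.22 to 0.0190) and RELA (-0.12 to 0.19) in shDEK17 against shEMPTY, for NFKB2 in shDEK14 against shEMPTY (-0.00849 to 0.30), for RELA over both hairpins (-0.0221 to 0.28), and for NFKBIA (-0.24 to 0.00574), NFKBIE (-0.17 to 0.0398) and NFKB2 (-0.22 to 0.16) in shDEK14 against shDEK17. With the experiment number as a replicate block, 0 genes were called in each contrast and no call changed. By correlation, 2 of 9 libraries were closest to a library of their own number. The median deviation of the members in shEMPTY replicate 2 stayed between -0.04 and 0.05 in 15 alternatives. Signal over background limits NFKB2, RELA and TNFAIP3, and RELB was not well above background on any array.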
